A study of Moxostoma hubbsi with 18 samples.

Results

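The genes described here copy DNA and drive the cell division cycle. They are 56 features of the deposited counts, taken by KEGG ortholog identifier from a fixed list of replication and cell cycle genes. The rule itself uses no measured value, but the list was chosen with earlier results of these data known. The list covers the MCM helicase, DNA polymerases, the PCNA clamp with its RFC loader, the single-strand binding protein RPA, GINS, origin factors, cyclins, cyclin-dependent kinases, mitotic kinases and checkpoint genes. It also holds ligase, nuclease and topoisomerase genes and genes of nucleotide supply. All 56 were found among the 9645 features of the series table and among the 9025 of the sample files. The files hold identifiers without gene names and no table used here pairs them, so values are given by identifier and no role is assigned to a single identifier. A feature of this kind may sum the reads of several related genes.

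Before a cell copies its DNA, origin factors load the ring-shaped MCM helicase onto the chromosomes. GINS and kinases then switch the helicase on, RPA coats the opened strands, and primase with the replicative polymerases builds the new strands along PCNA. Cyclins and their kinases time these steps, mitotic kinases carry the cell through division, and checkpoint genes hold it back when DNA or the spindle is not in order. In a growing fish larva these genes are active in the tissues whose cells are still dividing, and many of them are transcribed little in cells that have left the cycle.

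RNA was sequenced from copper redhorse (Moxostoma hubbsi), an endangered freshwater sucker, in 18 libraries. Each was made from a pool of 5 whole larvae, frozen at an age of 14 days post fertilization. Larvae had been raised in laboratory water, which served as the control, in 9 libraries, and in river water, described in the series title as contaminated, in 9 libraries. The labels name no strain, genotype or dose, and no gene was altered in any group. They do not say whether the pools of a water came from separate tanks or families, so the p-values reflect how much the pools differed, and part of that may be technical.

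Total counts were between 14868181 and 20584727 per library. River water replicate 1 had the lowest total and stood apart, with Spearman correlations of 0.928 to 0.965 with the rest, against 0.982 to 0.997 among the other libraries. The number of members called, the median change and summed level of the list, and the largest falls are therefore given with and without it. Other values of single members include it unless stated. Each member had between 19 and 3681 counts in a library, and all 56 passed the low-count filter, so none dropped out of the comparison. Levels are given in CPM, which are counts brought to a common library total after scaling. They grow with transcript length, so they are compared between waters and not between members.

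In river water 34 of the 56 members were lower and 0 were higher (adjusted p under 0.05, edgeR's quasi-likelihood test with Benjamini-Hochberg adjustment over 9008 features). That is 60.7% of the list, whereas 4.14% of all features tested were called lower and 2.13% higher. Because the list was chosen with earlier results of these data known, this contrast describes it and is not a test. At an unadjusted p under 0.05, 49 members were lower and 0 higher, against 12.3% of all features lower. DESeq2 called 37 members lower, beside 6.04% of all features, and limma-voom called 35, beside 4.42%, and both called 0 members higher. Scaling by total counts alone raised the median of all features from 0.01 to 0.03 on the log2 scale and left 18 of the 34. Under that scaling 2.45% of all features were called lower, and the calls over all features turned from 373 lower and 192 higher to 221 lower and 314 higher. A pool of whole larvae cannot tell fewer dividing cells from less of these RNAs in each cell.

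The estimated level in river water was between 0.635% (K04503) and 31.2% (K10735) lower. All 56 members had a negative log2 change, though that of K04503 became 0.012 with total counts alone, and 47% of all features tested were negative. Their median log2 change was -0.28, a level 17.7% lower in river water, with quartiles of -0.39 and -0.20. Over all features the median was 0.01, with quartiles of -0.08 and 0.09.

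**Figure D1:**
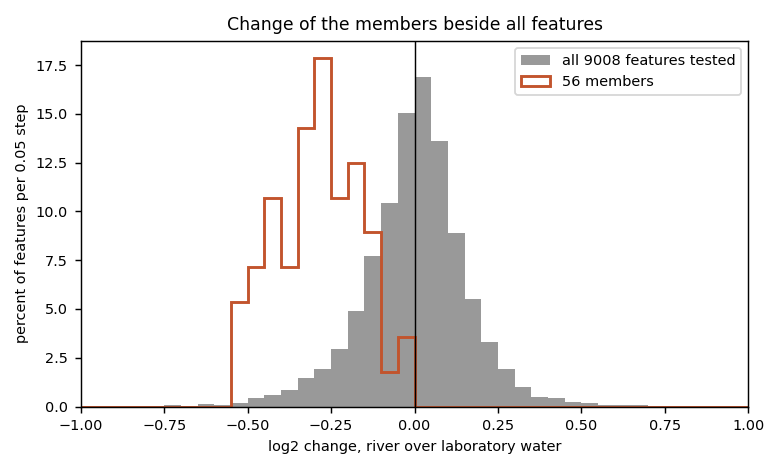
Distribution of the log2 change of river over laboratory water, in percent of features per step, for all 9008 features tested (grey) and for the 56 members (outline). The members lie below 0 under this scaling, around a median of -0.28, while all features are centred at 0.01.

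The 34 lower members fell by between 12.1% and 31.2%. The 11 largest falls, from 25.7% to 31.2%, were those of K10735, K06628, K02212, K00560, K02216, K02542, K02541, K02685, K02540, K02684 and K02209. These sizes include river water replicate 1. Without it the log2 changes of K10735, K06628, K02212 and K00560 were -0.52, -0.49, -0.45 and -0.44, against -0.54 to -0.49 with it. Those of the rest of these members then lay between -0.39 and -0.35, against -0.46 to -0.43 with it. A middle group of 19 fell by 15.4% to 24.5% and consisted of K02324, K10807, K04802, K02320, K10747, K02603, K02321, K02210, K10740, K02213, K02206, K10151, K10739, K10756, K02327, K10808, K06618, K10755 and K10743. The 4 smallest, K04799, K06626, K10754 and K07466, fell by 12.1% to 14.0%. For 32 of the 34 every river water library lay below the laboratory mean, and for the other 2, K10756 and K10739, 8 of 9 did. The test selected the 34 from these same libraries, so this describes them and adds no support. Over the 56 members, 33 had all 9 river water libraries below the laboratory mean, and the lowest number was 4. The share over all features was not computed.

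**Figure D2:**
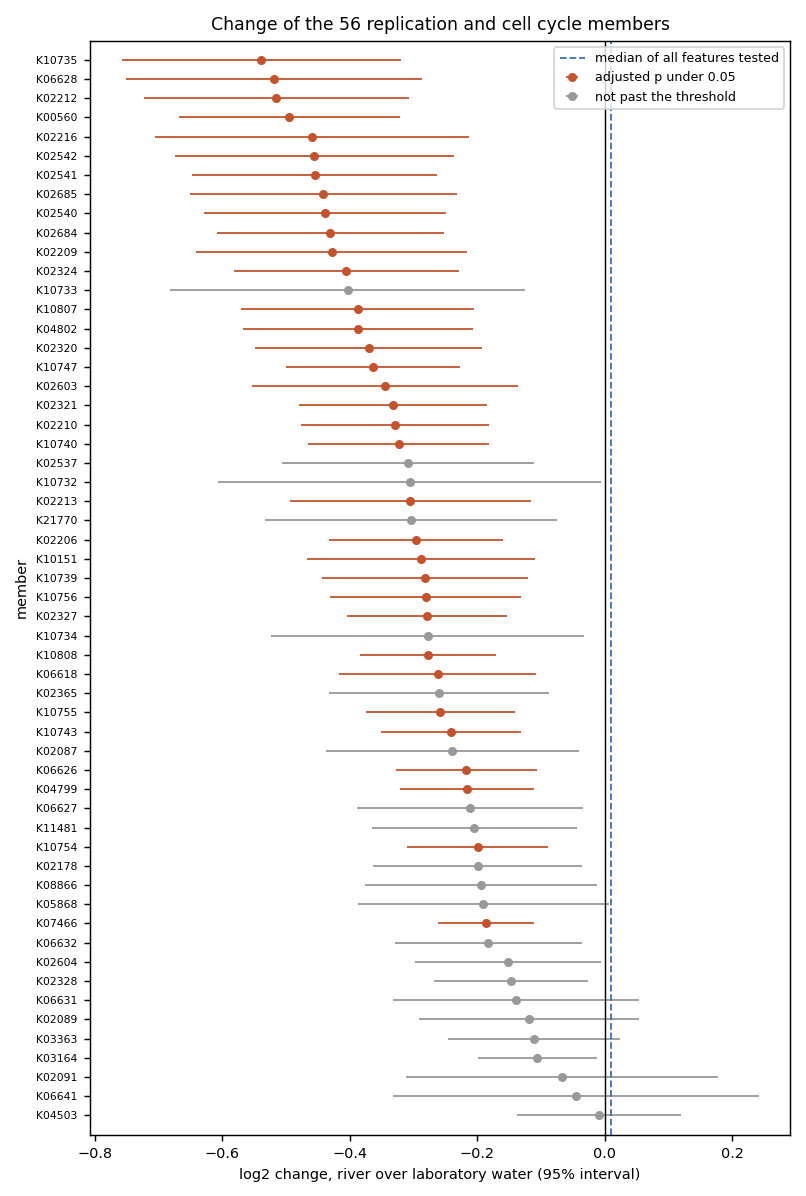
Log2 change of each of the 56 members, river over laboratory water, with 95% intervals from the edgeR fit (9 libraries per water). Red points passed an adjusted p of 0.05 and grey points did not, and every point lies left of 0.

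The 12 members with the smallest adjusted p were examined library by library. K00560 ranged from 14.2 to 17.1 CPM in laboratory water, with a median of 15.3, and from 7.71 to 13.7 CPM in river water, with a median of 11.1. The waters did not overlap, and river water replicate 1 was the lowest library. On the log2 scale it changed by -0.49 ± 0.083 (SE; adjusted p = 0.00219, edgeR). K10747 had 31.0 to 38.1 CPM (median 34.7) in laboratory water and 21.4 to 32.1 CPM (median 26.3) in river water. Only river water replicate 8 reached into the laboratory range. For K10747 the log2 change was -0.36 ± 0.065 (SE; adjusted p = 0.00297, edgeR).

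K02212 showed one of the largest log2 changes of the list. Its level was 54.0 to 74.4 CPM (median 58.8) in laboratory water and 27.2 to 53.1 CPM (median 45.9) in river water. The waters did not overlap, and the log2 change was -0.52 ± 0.0995 (SE; adjusted p = 0.00529, edgeR). K02541 had 39.3 to 55.5 CPM (median 46.2) and 22.1 to 42.2 CPM (median 35.9), in the same order of waters. K02540 had 57.9 to 78.8 CPM (median 63.6) and 32.9 to 58.6 CPM (median 51.0). For both, 8 of the 9 river water libraries lay below all of laboratory water and replicate 1 was lowest. Their log2 changes were -0.455 ± 0.092 (SE) for K02541 and -0.44 ± 0.091 (SE) for K02540, with adjusted p of 0.00642 and 0.00784 (edgeR).

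The members with the most counts were K03164, described with those that did not pass, K10808 and K07466. K10808 had 103.1 to 126.5 CPM (median 113.4) in laboratory water and 84.4 to 109.8 CPM (median 91.7) in river water. K07466 had 86.0 to 102.1 CPM (median 95.1) and 78.7 to 88.8 CPM (median 82.2). In both members river water replicate 3, not replicate 1, was the lowest library, and the waters overlapped at their edges. The log2 change was -0.28 ± 0.051 (SE) for K10808 and -0.19 ± 0.036 (SE) for K07466, with adjusted p of 0.00358 and 0.00529 (edgeR). K07466 had the smallest standard error of the 56 members.

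K10735, a member with few counts (34 to 90 per library), had the largest estimated fall of the list. Its level was 3.30 to 5.19 CPM (median 4.27) in laboratory water and 2.14 to 3.65 CPM (median 2.85) in river water, and 6 river water libraries lay below all of laboratory water. The log2 change was -0.54 ± 0.11 (SE; adjusted p = 0.00529, edgeR). K02684 had 14.5 to 22.3 CPM (median 19.7) in laboratory water and 10.9 to 17.4 CPM (median 14.8) in river water. Here 4 river water libraries lay below the laboratory minimum, which was set by laboratory water replicate 5. Its log2 change was -0.43 ± 0.085 (SE; adjusted p = 0.00572, edgeR).

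The remaining 3 of the 12 were K02324, K10740 and K02321. K02324 had 15.6 to 21.5 CPM (median 17.3) in laboratory water and 9.72 to 16.6 CPM (median 14.0) in river water. K10740 had 14.7 to 18.3 CPM (median 15.7) and 10.3 to 15.2 CPM (median 13.7). K02321 had 13.9 to 18.03 CPM (median 16.5) and 10.7 to 14.8 CPM (median 12.9). Between 7 and 8 river water libraries lay below all of laboratory water in each of them. Log2 changes were -0.41 ± 0.085 (SE), -0.32 ± 0.068 (SE) and -0.33 ± 0.071 (SE) in that order, and adjusted p were 0.008, 0.00864 and 0.00871 (edgeR).

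**Figure D3:**
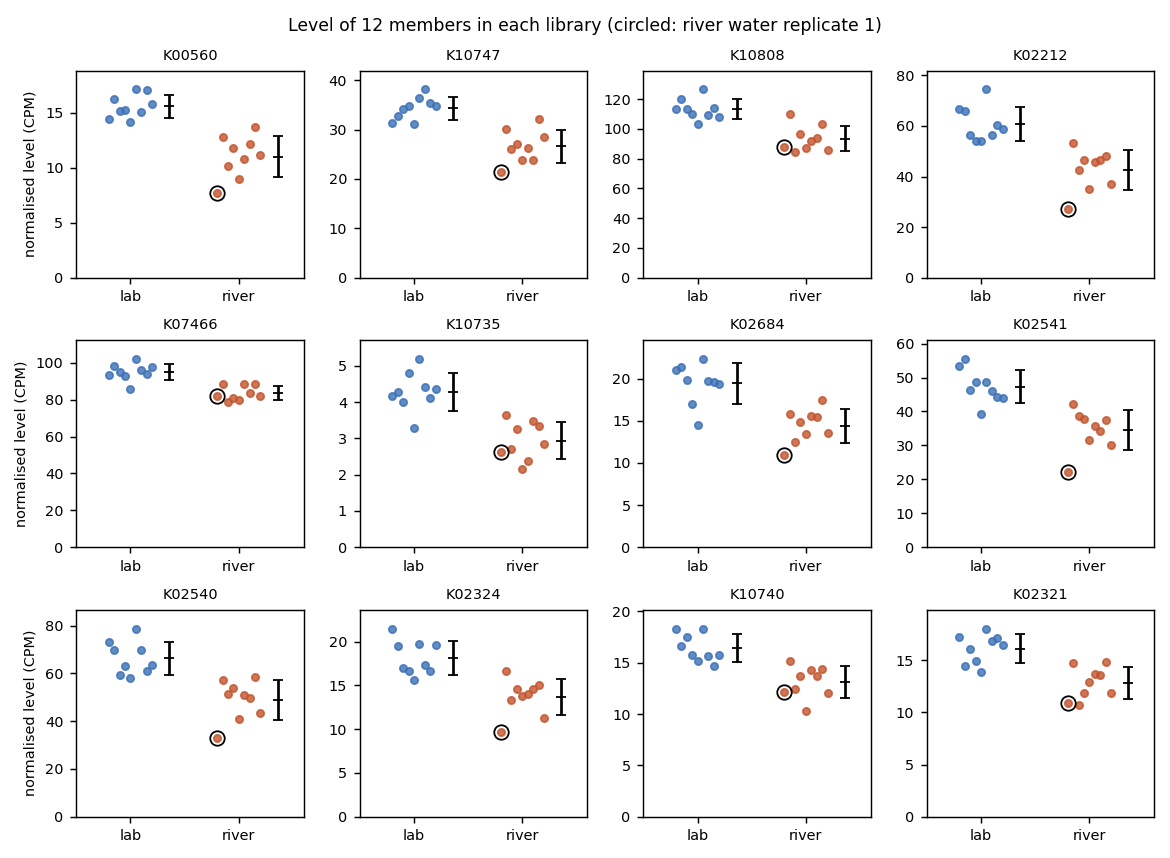
Normalised level in CPM of the 12 members with the smallest adjusted p, with 1 point per library, 9 per water, and the mean with its SD to the right of each group. River water replicate 1, circled, is the lowest point in K00560, K10747, K02212, K02684, K02541, K02540 and K02324, and the other river water libraries also lie mostly below laboratory water.

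In 5 members, or 8.93% of the list, every river water library lay below every laboratory water library, against 0.677% of all features tested. Besides K00560 and K02212 these were K02209, K02206 and K02320, named here for this separation. K02209 had 49.5 to 67.3 CPM in laboratory water and 23.6 to 48.3 CPM in river water (log2 change -0.43 ± 0.10 SE, adjusted p = 0.0165, edgeR). K02206 had 9.29 to 11.3 CPM and 6.71 to 9.12 CPM (log2 change -0.30 ± 0.065 SE, adjusted p = 0.0104, edgeR). The margin was narrowest in K02320, whose highest river water library had 19.28 CPM and whose lowest laboratory water library had 19.37 CPM (log2 change -0.37 ± 0.086 SE, adjusted p = 0.0137, edgeR). These last 3 did not pass with total counts alone.

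Members varied widely in how far they shifted, and 22 did not pass the test. Of these, 15 had an unadjusted p under 0.05 and 7 did not. The 15 were K02537, K02365, K10733, K21770, K11481, K06632, K02328, K02178, K02087, K06627, K03164, K10734, K08866, K02604 and K10732. The closest to the threshold was K02537, with an adjusted p of 0.0543 (edgeR) and a log2 change of -0.31 ± 0.095 (SE), next to K02213 inside it at 0.0498 (edgeR). Without river water replicate 1, K02537 passed, with an adjusted p of 0.0469 (edgeR). The standard errors of members that did not pass, 0.045 to 0.14, were much like those of members that did, 0.036 to 0.12. Their median log2 change was -0.19, against -0.34 in the members that passed, which the test itself selected.

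The other 7 were K05868, K03363, K06631, K02089, K02091, K06641 and K04503. K04503 showed the least change of the list. It ranged from 16.4 to 21.6 CPM in laboratory water and from 15.4 to 20.4 CPM in river water, and the waters overlapped almost fully. Its log2 change was -0.0092 ± 0.062 (SE), with a 95% interval of -0.14 to 0.12 and an adjusted p of 0.946 (edgeR). That interval lies above the median change of the list, as do those of K07466, K02328, K03164 and K03363. The intervals of K00560, K02212, K10735 and K06628 lie below that median. These intervals are not adjusted for the number of members.

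K03164, with the most counts of the list (1878 to 3681 per library), had 145.4 to 180.7 CPM in laboratory water and 137.5 to 166.3 CPM in river water. Its log2 change was -0.11 ± 0.045 (SE; adjusted p = 0.157, edgeR), and its standard error was the smallest among the members that did not pass. K06641 held the smallest single count of the list. It had 19 to 68 counts per library, with 2.03 to 3.22 CPM in laboratory water and 1.47 to 3.32 CPM in river water. Its log2 change was -0.05 ± 0.14 (SE; adjusted p = 0.877, edgeR) and a 95% interval of -0.33 to 0.24, too wide to tell the median change of the list from none. K10734, with 20 to 55 counts per library and the lowest mean CPM of the list, had a log2 change of -0.28 ± 0.12 (SE) and an adjusted p of 0.159 (edgeR).

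The members that varied most over the 18 libraries were K06628, K02216 and K10733. K06628 had 6.42 to 9.44 CPM in laboratory water and 3.80 to 7.88 CPM in river water, where replicate 9 was lowest (log2 change -0.52 ± 0.11 SE, adjusted p = 0.00915, edgeR). K02216 had 5.29 to 8.75 CPM and 2.85 to 6.50 CPM (log2 change -0.46 ± 0.12 SE, adjusted p = 0.0245, edgeR), and the highest laboratory value belonged to replicate 6. Without laboratory water replicate 6 or river water replicate 9 the adjusted p of K02216 rose to at most 0.0514 (edgeR). K10733 had 2.33 to 4.51 CPM and 1.76 to 3.74 CPM, with a log2 change of -0.40 ± 0.13 (SE) and an adjusted p of 0.0747 (edgeR). Without laboratory water replicate 5 its adjusted p was 0.0282 (edgeR).

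Libraries differed in how low the list stood, and the members tended to move together. Each member was set against its laboratory water mean on the log2 scale and averaged over the list in each library. The 9 laboratory water libraries lay between -0.14 and 0.11, and the 9 river water libraries between -0.63 and -0.08. River water replicates 1, 5, 9 and 3 were lowest, at -0.63, -0.46, -0.38 and -0.35. River water replicates 2 and 8, both at -0.08, lay within the laboratory range, above laboratory water replicate 5 at -0.14. The median over all features lay between -0.0046 and 0.010 in the 18 libraries.

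The same order appears member by member. All 56 members were below their laboratory mean in river water replicates 1 and 5, and 54 were in replicates 3, 4 and 9. In river water replicates 2 and 8 the number was 41 and 40. Among the river water libraries replicate 1 held the lowest value of 37 members, and replicates 2 and 8 held the highest value of 27 and 19. Shares over all features were not computed for the counts in this paragraph, so they are not read as particular to the list. Replicate 1 also departed over all features, 8.40% of which were over 2-fold lower in it than the average of the rest of its water. Within laboratory water, replicate 5 held the lowest value of 29 members and replicate 6 the highest of 27.

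Summed over the list, the level was 1664 ± 90.5 CPM (SD, n = 9) in laboratory water and 1360 ± 154 CPM (SD, n = 9) in river water. The highest sum in river water, 1589 CPM in replicate 2, exceeded only the lowest laboratory water sum, 1485 CPM in replicate 5. As a share of all counts in a library, before any scaling, the 56 members held 0.145% to 0.178% in laboratory water and 0.0959% to 0.164% in river water. The lowest share was that of river water replicate 1, and the next was 0.122%. By this share the waters overlapped more than by the scaled sum. River water replicate 2, at 0.1639%, exceeded laboratory water replicates 3, 5 and 8, at 0.1523%, 0.1448% and 0.1634%.

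**Figure D4:**
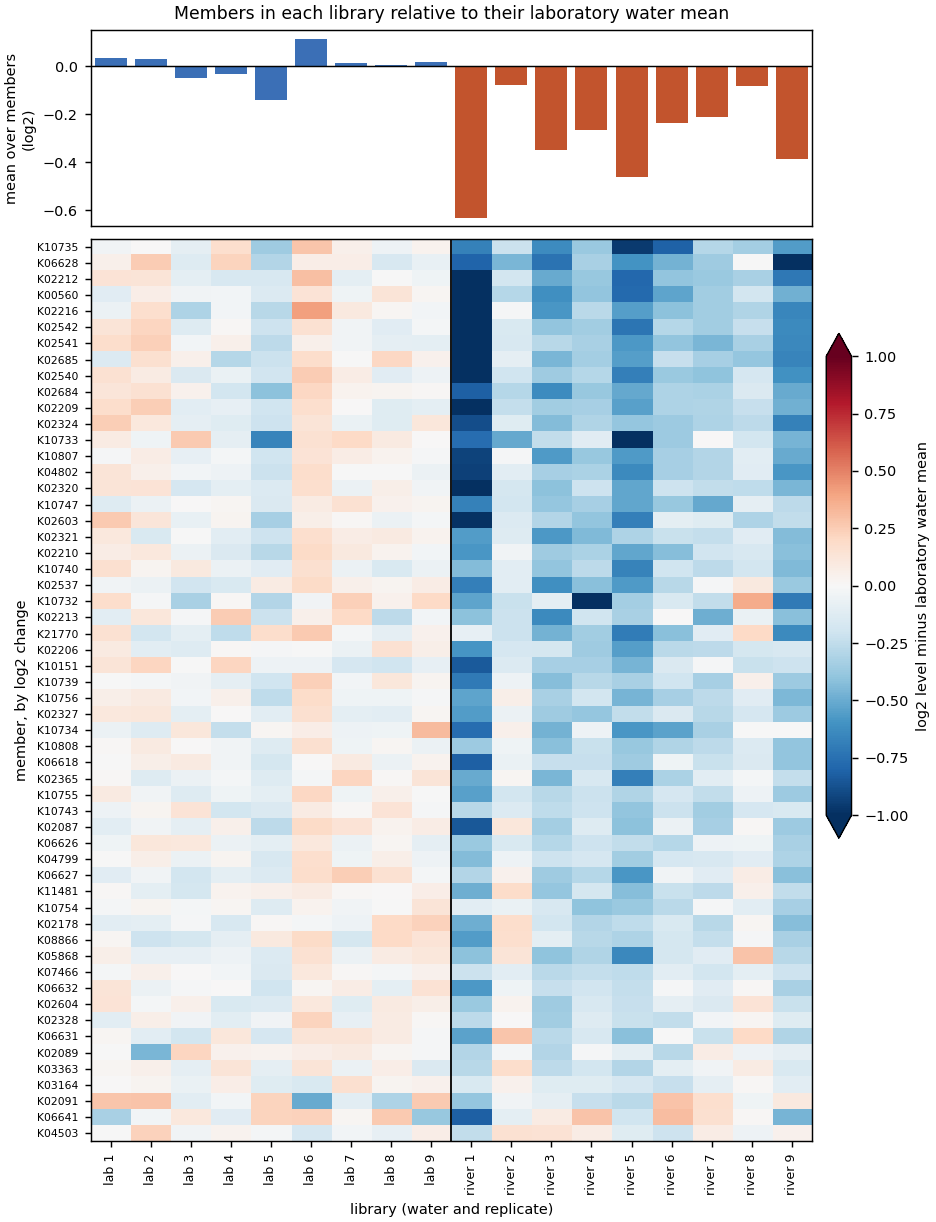
Log2 level of each member minus its laboratory water mean in the 18 libraries (colour, rows ordered by log2 change), with the mean over the 56 members above as bars. Laboratory water lies between -0.14 and 0.11, river water replicates 2 and 8 at -0.08, and river water replicate 1 lowest at -0.63.

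River water replicate 1 shared the direction of its group and went further. The list stood in it at a median log2 difference of -0.32 from the average of the remaining 8 libraries of its water, and 54 of 56 were lower there, against 50.1% of all features. None of the 56 was over 2-fold lower in it than in that average, whereas 8.40% of all features were. Against its laboratory water mean the lowest member there, K02209, stood at -1.26 on the log2 scale. With this library left out, 35 members were called lower and 0 higher (edgeR), 34 of them the same as before, and the background of features called lower was 6.72%. The median log2 change of the list was then -0.25, the summed level in river water was 1392 ± 127 CPM (SD, n = 8), and K04503 and K06641 turned slightly positive without passing the test. It also had the lowest total count, whose part in this was not tested.

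The deposited file names carry a number from 1 to 3, whose meaning is not stated in the labels and which could mark a batch, tank or family. If it marked tanks or families within a water, pools sharing a number would not be independent. The p-values over 9 libraries per water could then be too small. With libraries summed by file number, 3 per water, 27 members were called lower (edgeR), beside 2.70% of all features. The list was lower in river water within each number, with median differences of -0.34, -0.30 and -0.25 on the log2 scale for 3 libraries per water. Of the 56 members 56, 54 and 52 were lower, in the order of the numbers. Within number 1 without river water replicate 1 the median was -0.23 and 51 were lower. The corresponding shares over all features were 52.9%, 46.5%, 49.3% and 51.4%.

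Leaving out any 1 library gave between 26 and 37 members called lower and 0 called higher (edgeR), while 2.86% to 6.72% of all features were called lower. Of the 34, 26 passed in each of these fits, and the share of all features that did so was not computed. The 8 that did not were K10756 and K02216, which passed in 16 of the 18 fits, K10754 in 12 and K10739 in 6, and K06618, K02603, K10151 and K02213 in 5 each. Conversely, K02537 passed in 4 of the 18 fits, K02365 in 2, and K10733, K21770, K11481 and K02178 in 1 each.

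Members also varied together among pools of the same water, a comparison that does not use the difference between waters. Over the 9 laboratory water libraries the median correlation of log2 levels was 0.33 across the 1540 pairs of members, and 75.8% of pairs were positive. All pairs of features tested had a median of -0.0033. Over river water without replicate 1 (8 libraries) the median was 0.62 and 96.8% of pairs were positive, against 0.00047 over all features. These values describe few libraries that share all their members, and they carry no test.

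The 34 members that were lower in river water were compared in the same way with the 22 that did not pass, a split made with the same libraries. In laboratory water their median correlation was 0.55 over 561 pairs, against 0.16 over the 231 pairs of members that did not pass. In river water without replicate 1 the same medians lay closer, at 0.65 and 0.54, with 99.1% and 91.8% of pairs positive. K02210, K10807, K04802 and K07466 followed the mean of the other 55 members most closely within laboratory water, at 0.93, 0.93, 0.91 and 0.90. At the other end K02091, K02089, K06641 and K04503 ran against it, at -0.45, -0.26, -0.24 and -0.16, and these 4 also had the least correlation in river water, 0.17 to 0.33. All 4 were among the 6 members with the smallest changes. These members were picked for their values. K06641, K02091 and K02089 are among those with few counts, while K04503 had 200 to 430 counts per library. Whether counting error had a part in these correlations was not tested.

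**Figure D5:**
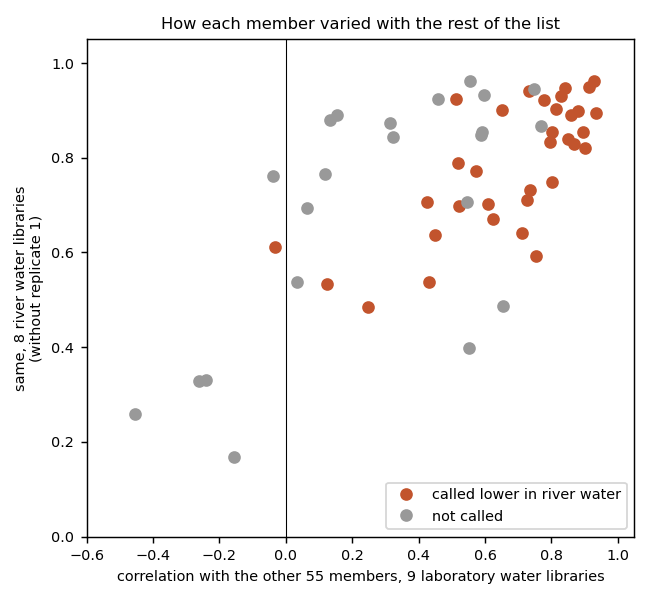
Correlation of each member's log2 level with the mean of the other members over 9 laboratory water libraries (x axis) and over 8 river water libraries without replicate 1 (y axis). Members called lower in river water (red) lie mostly to the right, and the 4 lowest points, all grey and left of 0, are K02091, K02089, K06641 and K04503.

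The spread between pools was wider in river water. The median SD of the members' log2 levels was 0.13 in laboratory water, 0.22 in river water and 0.17 in river water without replicate 1. The last was larger than in laboratory water for 47 of the 56 members, or 83.9%, and for 54.6% of all features tested. Over all features the medians were 0.11, 0.17 and 0.12.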

How the data were processed

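Libraries were pools of whole larvae, grouped by the water in their titles. The authors deposited raw counts, whole numbers per feature with no normalization. The submitters' processing notes name edgeR, with aligner, sequence database and counter not given in the sources used here. A table of the series repeats the sample files (0 values differ) with 620 more features, and its columns were assigned by its own class line.

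All 9025 features entered the analysis, made with edgeR 4.0.16 under R 4.3.3. The default low-count filter (minimum count 10, minimum total 15) left 9008. Libraries were scaled by TMM, and 1 fit with water as the only term was tested by the robust quasi-likelihood F test, adjusted over all features. The SE is the log2 change over the square root of F, and its 95% interval uses the degrees of freedom of the fit. Log2 CPM used a prior count of 2. Alternatives used DESeq2 1.42.0, limma 3.58.1 and the other settings given at the end. No library repeated another, since every pair differed beyond counting noise (smallest chi-square, per degree of freedom, 4.20). The fit was checked on simulated counts.

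The members were chosen with earlier results of these data known. The 12 members with the smallest adjusted p were described in full, and the 3 with most counts, fewest counts and largest SD by range. Further pathway genes listed by symbol, and an ordering by role, could not be used without a table of names.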

Additional observations from a re-analysis of the deposited data

Results flagged for a closer look

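The level of K10733 in laboratory water replicate 5 was 2.33 CPM, far from the other 8 laboratory water libraries, whose lowest value was 3.50 CPM. It was the 1 gap singled out among 40 sets of 9 values, where about 1 in 20 would be by chance, and its cause was not tested. Those sets did not cover every member described. In river water K02209 had 23.6 CPM in replicate 1 and 38.9 CPM in replicate 5, the next lowest. K02320 likewise had 10.7 CPM in replicate 1 and 15.2 CPM in replicate 5.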

How the results depend on the processing

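The count of 34 lower members (4.14% of all features) fell to 18 when libraries were scaled by total counts alone (2.45%), and the cause was not tested. With the other 12 alternatives, apart from leaving out 1 library, it was 27 (libraries summed by file number, 2.70% of all features) to 37 (DESeq2, 6.04%), and the count of higher members was 0 throughout. A fit with a replicate block gave 30 (2.83% of all features), of which 29 were among the 34. Deviations of same-numbered pairs correlated by more than 0.1 in 4 of 9 cases, with correlations from -0.43 to 0.37. Of 18 libraries, 2 correlated best with their own number. No clear pairing by number was seen, though such correlations cannot show that same-numbered pools had no common origin, which the labels do not state. The median log2 change of the list lay between -0.34 (file number 1 alone) and -0.25 (file number 3 alone) in these settings. Only within file number 1 without river water replicate 1 was the median nearer 0, at -0.23. It moved by less than the spread between river water libraries (SD 0.155), a loose limit because that spread is of single libraries. It was 17 members that passed in every setting, libraries left out included, and the share of all features that did so was not computed. Among 23 members described by library or range, 21 kept their direction in every fit over all numbers. The log2 change of K06641 turned positive when river water replicate 1 (0.023) or 9 (0.0024) was left out, over a range of -0.0955 to 0.023 with 1 library left out. That of K04503 was 0.012 with total counts alone, 0.0023 with summed libraries, 0.046 without river water replicates 1 and 6, and -0.030 to 0.023 with 1 library left out. Within a file number, K06641 was at 0.018 in number 2 and K04503 at 0.038 in number 3. K02216, K02206, K02209 and K02320 lost their calls with total counts alone, K02206 also with summed libraries, K02537 passed with DESeq2, limma-voom and the file number as a block, and K10733 passed with DESeq2 and with the replicate block. Depth may limit the members with few counts, which was not tested, and 18 members had under 100 counts in some library.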
